A study of Homo sapiens with 21 samples.

Results

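The genes of major histocompatibility complex (MHC) class I antigen presentation were followed through a TGFβ time course in HMLE cells, an immortalized mammary epithelial line of human origin. The 9 genes were taken by symbol as genes of this pathway: HLA-B, HLA-C, HLA-E, B2M, TAP1, TAP2, TAPBP, PSMB8 and PSMB9, out of 23201 symbols in the deposited table. TGFβ is a cytokine that drives epithelial-mesenchymal transition (EMT), the change of epithelial cells towards a mesenchymal state. RNA-seq libraries were made from untreated cells (d0) and from cells on days 1, 4, 7, 10, 15 and 20 of TGFβ treatment (d1 to d20), with 3 libraries at each of the 7 timepoints and 21 in all. The libraries of a timepoint, which the study describes as biological triplicates, are called a, b and c here in the order of the table's columns, and these letters carry no pairing between days. No group was cultured for the same length of time without TGFβ, so time in culture and TGFβ treatment cannot be told apart. The deposited values are reads divided by 1 size factor per library, called normalised reads below, and the libraries held between 18847917 and 22667754 reads. All 9 genes passed the filter on low values, a mean of at least 10 over the 21 libraries, which 13343 genes passed.

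Class I molecules display short peptides from inside the cell to CD8+ T cells. The proteasome cuts proteins into peptides, and interferon-induced cells swap 3 of its catalytic subunits for those of the immunoproteasome, among them PSMB8 and PSMB9. The TAP1-TAP2 transporter moves the peptides into the endoplasmic reticulum, where tapasin (TAPBP) bridges the transporter to empty class I molecules, each made of a heavy chain and the light chain β2-microglobulin (B2M). HLA-B and HLA-C are classical heavy chains, which present to T cells and also bind receptors on natural killer cells. HLA-E is a non-classical heavy chain that mainly carries peptides from the signal sequences of other heavy chains and is recognised by NKG2 receptors on natural killer cells. Interferons raise these genes through IRF and STAT factors and the class I transactivator NLRC5, and NF-κB also acts on class I promoters.

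Because these genes are followed together, their promoters are shown first. The 250 bases before the transcript start were taken from RefSeq on build GRCh38.p14, while the submitters' processing notes name hg19 for the libraries, so no coordinate was carried over from the files. The table held 8 of the 9 genes and not HLA-E, and it listed 2 starts each for TAP1 and PSMB8. The search used GAAANNGAAA, the core of an interferon-stimulated response element, and the shorter GAANNGAAA, which can overlap it, on both strands. The longer motif lay before 4 genes (B2M, TAP1, TAP2 and TAPBP) and the shorter one before 3 (HLA-B, HLA-C and TAP2), against 3.02% and 6.56% of 35116 promoter windows of the same length. The counts are of genes, with a match at any start, while the percentages are of single windows. For TAP1 only 1 of its 2 windows held a match. The promoters printed are those of a heavy chain, the light chain, both transporter subunits and tapasin, with matches to either motif in capitals.
HLA-B: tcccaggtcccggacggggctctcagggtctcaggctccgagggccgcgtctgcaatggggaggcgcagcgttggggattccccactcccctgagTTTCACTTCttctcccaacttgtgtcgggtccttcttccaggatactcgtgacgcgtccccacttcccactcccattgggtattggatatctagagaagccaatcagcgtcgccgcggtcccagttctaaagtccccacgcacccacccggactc
B2M: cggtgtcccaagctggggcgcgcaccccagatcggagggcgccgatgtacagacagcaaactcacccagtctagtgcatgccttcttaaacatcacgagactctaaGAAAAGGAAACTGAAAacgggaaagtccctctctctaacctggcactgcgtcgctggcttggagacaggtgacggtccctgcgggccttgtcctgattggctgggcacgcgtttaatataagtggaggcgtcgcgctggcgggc
TAP1: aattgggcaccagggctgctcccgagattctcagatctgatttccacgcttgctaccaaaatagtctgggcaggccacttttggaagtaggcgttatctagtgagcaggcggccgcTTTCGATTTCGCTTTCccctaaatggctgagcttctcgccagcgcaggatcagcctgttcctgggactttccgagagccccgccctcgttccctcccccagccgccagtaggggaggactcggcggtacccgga
TAP2: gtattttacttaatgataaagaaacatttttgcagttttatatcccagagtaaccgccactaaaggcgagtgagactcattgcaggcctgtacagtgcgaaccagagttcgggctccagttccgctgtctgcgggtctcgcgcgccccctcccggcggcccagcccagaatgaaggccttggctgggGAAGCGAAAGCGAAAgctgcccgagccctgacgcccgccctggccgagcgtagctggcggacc
TAPBP: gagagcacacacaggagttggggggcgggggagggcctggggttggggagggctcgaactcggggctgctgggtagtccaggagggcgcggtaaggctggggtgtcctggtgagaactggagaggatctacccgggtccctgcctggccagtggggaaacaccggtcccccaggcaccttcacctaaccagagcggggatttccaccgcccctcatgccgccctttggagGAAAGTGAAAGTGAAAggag
These windows are chr6:31357180-31357429 on the minus strand, chr15:44711267-44711516 on the plus strand, chr6:32853705-32853954 on the minus strand (the start of TAP1 farther upstream), chr6:32838740-32838989 on the minus strand and chr6:33314079-33314328 on the minus strand. HLA-B had 1 match, read on the opposite strand, from 155 to 147 bases before its start, and HLA-C had the same 9 bases from 151 to 143 bases before its own. In B2M 2 overlapping matches spanned 144 to 129 bases before the start, and in TAP1 2 overlapping matches on the opposite strand spanned 134 to 119 bases. TAPBP carried 2 overlapping matches within 20 bases of its start, and in TAP2 a match to the longer motif began 58 bases before the start and overlapped 1 to the shorter motif. TAP1 and PSMB9 are neighbours that are read away from each other, with starts 488 bases apart, and neither motif was found in the window of PSMB9 or in either window of PSMB8. A match describes the letters alone and no binding was measured here.

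From d7 on, 7 of the 9 genes, the 3 heavy chains, B2M, TAP1, TAPBP and PSMB9, fell to d10, rose to d15 and fell to d20, each past the test, while TAP2 went the opposite way in each step. PSMB8 made the same steps over a smaller range. Before d7 the 7 genes did not all move one way: at d1 HLA-C was higher and TAP1 lower than at d0, and from d4 to d7 HLA-C and TAP1 rose while PSMB9 fell. The calls of TAP1 and PSMB9 from d4 to d7 were lost in some settings, as given below. The means of the 7 genes at d4, d7 and d15 were above those at d0 and at d10, though TAP1 at d4 did not pass the test against d0. At d10, HLA-B, TAP1, TAPBP and PSMB9 were called lower than at d0, and HLA-C, HLA-E and B2M were not called. All 7 had their highest mean at d15, which did not differ past the test from d7 for HLA-C, from d4 for PSMB9 or from either for TAPBP. Over the 21 libraries the correlations of log2 values between pairs of the 7 genes ran from 0.71 to 0.96. With the mean of all 9 genes, each centred on its own mean, the correlation was 0.51 for PSMB8 and -0.88 for TAP2. These correlations describe libraries that share their timepoint, and they are not tests. The level of 1 gene cannot be set against that of another on this scale, since the values are not divided by transcript length, and fewer cells expressing a gene and less RNA per cell cannot be told apart in bulk RNA.

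**Figure D1:**
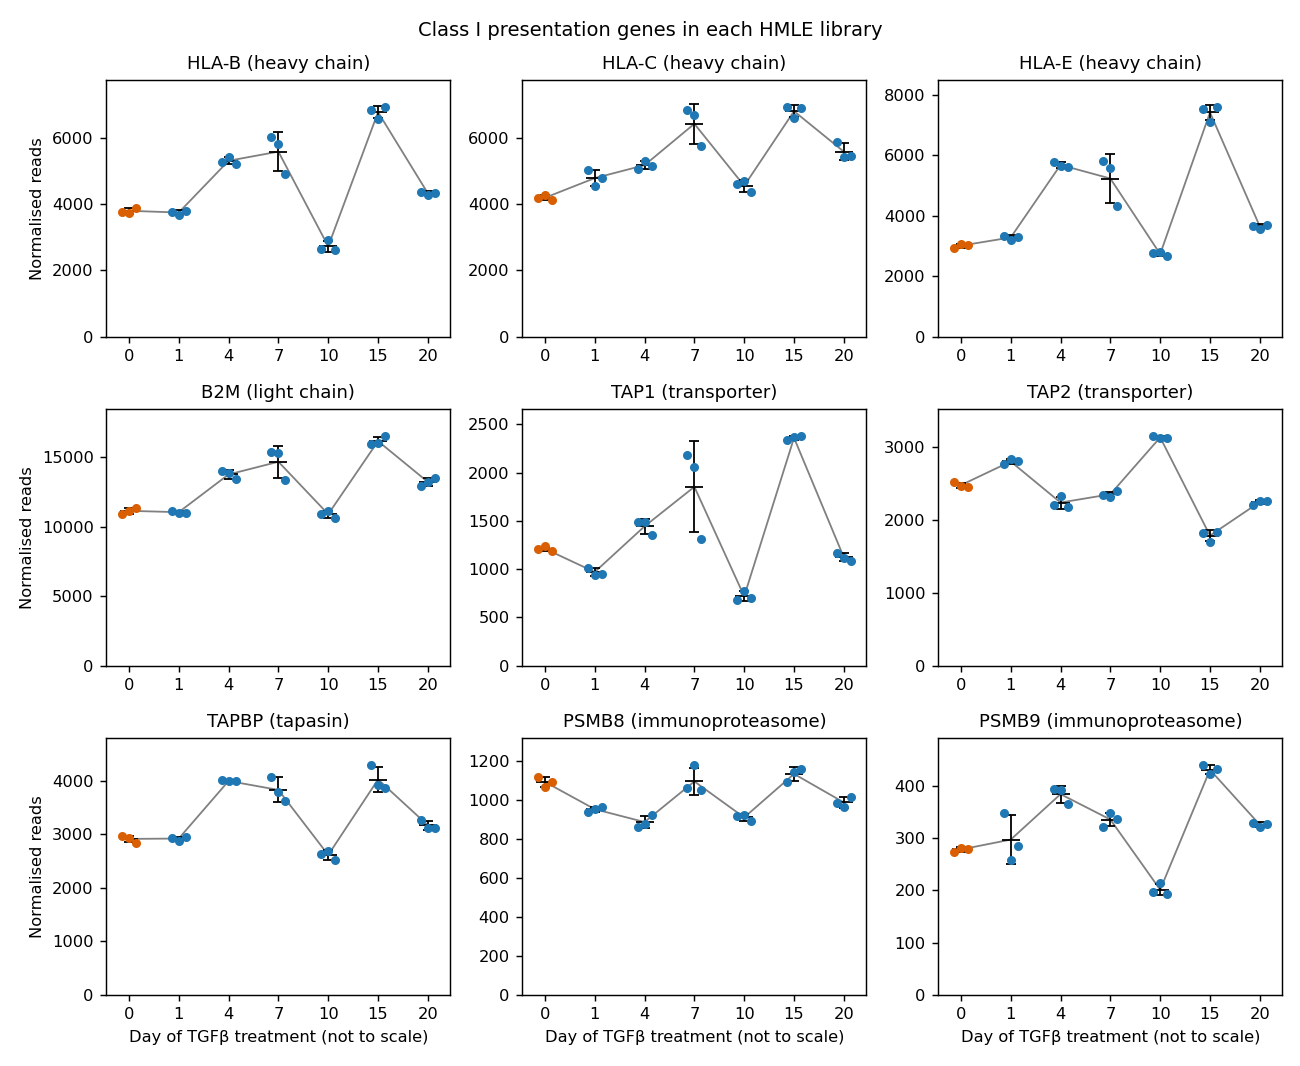
Normalised reads (vertical axis, starting at 0) of the 9 class I genes in each of 21 HMLE libraries by day of TGFβ treatment (horizontal axis, days evenly spaced). Points are libraries (orange untreated, blue treated), bars are the mean ± SD of 3 libraries and grey lines join the means; 7 genes dip at d10 and peak or nearly peak at d15, TAP2 does the reverse, and d7 library c lies below its 2 companions for HLA-B, HLA-E and TAP1.

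One library needs to be named before the tests. At d7, library c stood apart from libraries a and b, and for HLA-E it held 4325.1 normalised reads against 5808.4 and 5566.2. For TAP1 the gap was larger, 1316.1 against 2187.6 and 2057.0. Each result at d7 was therefore also computed without it, and 7 class I genes were called higher at d7 with it and 7 without it.

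Counted against untreated cells with limma on log2(value + 1), at an adjusted p (Benjamini-Hochberg, over all genes tested) under 0.05, the class I genes were counted on each day. At d1, 2 were higher and 2 lower, beside 31.3% of all tested genes higher and 28.5% lower, but rescaling every library to the same total or quantile normalization left 0 higher and 5 lower, beside 6692 and 4642 of all 13343 genes lower under these scalings. At d4, 6 were higher and 2 lower (36.9% and 35.3% of all genes), and at d7, 7 were higher and 0 lower (34.6% and 32.6%). At d10, 1 was higher and 5 lower (37.0% and 30.7%), and 7 were lower after rescaling or quantile normalization, HLA-E and B2M being added, beside 6740 and 4716 of the genes tested. At d15, 7 were higher and 1 lower (39.2% and 37.3%), the day with the most calls over all genes among the 6 treated days. At d20, 6 were higher and 2 lower (32.5% and 30.2%). However, 1 (HLA-C) was called higher when libraries were rescaled and 2 (HLA-C and PSMB9) after quantile normalization, beside 2661 and 3570 of all genes. Lower after rescaling were 3, beside 6778 of all 13343 genes. In all, 6 of the 9 genes were higher at each of d4, d7 and d15, as were 25.1% of all genes, and for 7 of the 9 every d4, d7 and d15 library lay above every d0 library, as for 24.7% of all genes. Between successive timepoints, 6 were higher and 1 lower at d4 than at d1 (32.9% and 32.0% of all genes), and 3 were higher and 1 lower at d7 than at d4 (25.5% and 25.5%). In this last step the 1 lower, PSMB9, was not called after rescaling (adjusted p = 0.0508) or with edgeR (0.0558), among other settings. Of the 3 higher, TAP1 was not called with only 2 groups in the fit (0.33, adjusted p = 0.193). Leaving out 1 library gave 2 to 5 higher. At d10, 1 was higher and 8 lower than at d7 (36.2% and 35.2%), at d15, 8 were higher and 1 lower than at d10 (39.3% and 40.5%), and at d20, 1 was higher and 8 lower than at d15 (37.7% and 36.3%). In each of the last 3 steps TAP2 was the 1 gene that went against the other 8. Of all calls against d0, 51.1 to 54.6% were higher, depending on the day, which became 26.7 to 39.1% after rescaling and 41.9 to 47.7% after quantile normalization. So many genes of the table moved in this time course that a call alone sets no class I gene apart.

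**Figure D2:**
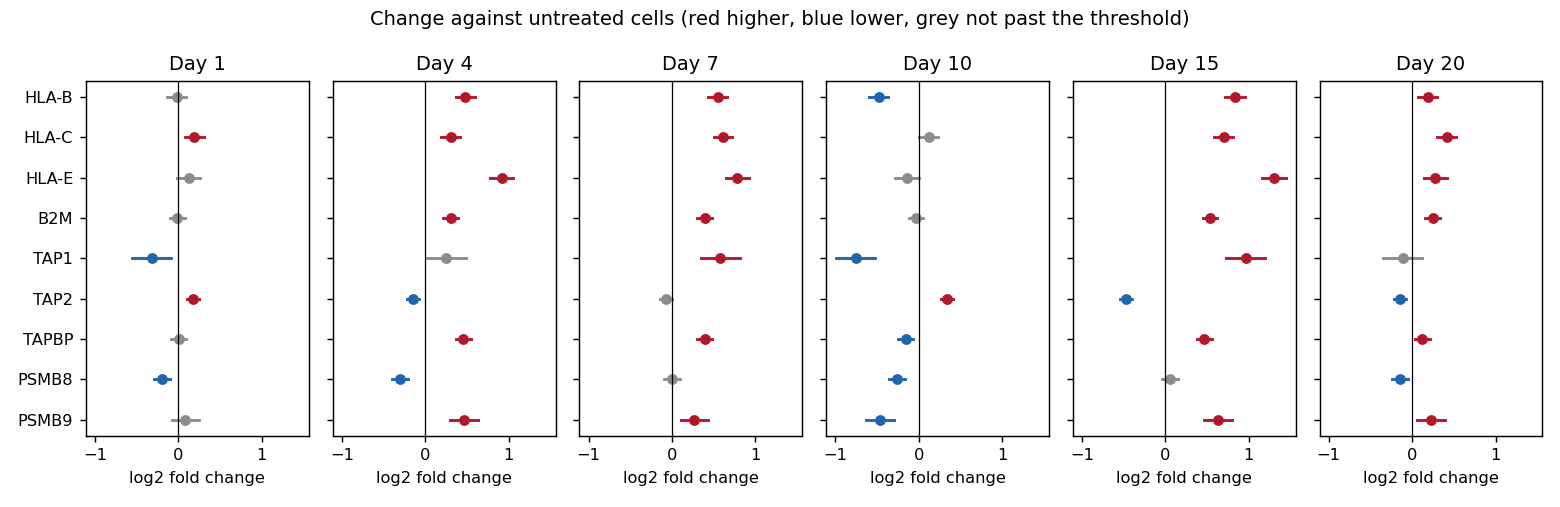
log2 fold change against untreated cells (horizontal axis) for the 9 genes on each day of TGFβ treatment, from limma with 3 libraries a day; points are estimates, lines are 95% confidence intervals, red is higher and blue lower at an adjusted p under 0.05, and grey did not pass. At d15 HLA-E lies farthest to the right at 1.30 and TAP2 farthest to the left at -0.47, and at d10 TAP1 lies farthest to the left at -0.75.

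Among the heavy chains HLA-E differed most from untreated cells at d4, d7 and d15, though HLA-B did at d10 and HLA-C at d20. Its libraries held 2934.1, 3056.0 and 3039.4 normalised reads at d0, 5794.7, 5644.8 and 5607.8 at d4, 2758.7, 2785.9 and 2653.8 at d10, and 7549.7, 7118.2 and 7592.0 at d15. The d4 and d15 libraries lay far above the untreated ones, and the d10 libraries fell just below them. Against d0 the log2 fold change was 0.92 (SE 0.067, limma adjusted p = 8.13e-11) at d4 and 1.30 (SE 0.067, adjusted p = 1.46e-13) at d15, a 2.46-fold difference. The difference at d10, -0.14, did not pass the test (95% interval -0.28 to 0.00, adjusted p = 0.0717), but it did after rescaling (-0.37, adjusted p = 2.75e-05), after quantile normalization (-0.33, adjusted p = 0.000717), with only 2 groups in the fit (-0.14, adjusted p = 0.000616), without d7 library c (-0.14, adjusted p = 0.000115) and with edgeR (-0.18, adjusted p = 0.0292). Ordered by level, the days ran d10, d0, d1, d20, d7, d4 and d15, and neighbours from d10 to d20, and d7 and d4, did not differ past the test.

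HLA-B, the classical heavy chain with the deepest dip, had 3780.5, 3734.6 and 3895.2 normalised reads at d0 and 2636.3, 2921.9 and 2627.4 at d10. By d15 the libraries reached 6847.9, 6571.9 and 6933.2. All d10 libraries lay below, and all d15 libraries above, the untreated range. HLA-B fell by 0.48 (SE 0.055, limma adjusted p = 1.20e-07) on the log2 scale at d10 and was 0.83 higher (SE 0.055, adjusted p = 9.60e-12) at d15. From d7 to d10 it dropped to 0.489 of its level (adjusted p = 2.67e-12), and from d10 to d15 it rose 2.49-fold (adjusted p = 6.52e-15). At d1 the libraries, from 3679.8 to 3799.9, overlapped the untreated ones. The days ran d10, d1, d0, d20, d4, d7 and d15 from low to high, and d1 and d0, and d4 and d7, did not differ past the test.

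HLA-C changed less sharply, and on the deposited scale its mean was not below the untreated one on any day. At d0 its libraries held 4180.9, 4284.2 and 4124.8 normalised reads, and at d10 they held 4614.7, 4700.2 and 4362.1. At d15 the values were 6933.6, 6609.9 and 6901.1, and at d20 they were 5879.6, 5429.6 and 5465.0. Every treated library lay above every untreated one, although the d10 difference of 0.12 did not pass the test (adjusted p = 0.0554). It passed with only 2 groups in the fit (adjusted p = 0.00223), without d10 library c (0.15, adjusted p = 0.0341) and without d7 library c (0.12, adjusted p = 0.00233), and it took the opposite sign after rescaling (-0.11) and quantile normalization (-0.07). HLA-C was higher by 0.70 (SE 0.054, limma adjusted p = 1.18e-10) at d15 and by 0.41 (adjusted p = 8.57e-07) at d20, beside 0.19 for HLA-B and 0.28 for HLA-E on that day. Over all 18 treated libraries against the 3 untreated ones it was the 1 class I gene called, by 0.39 (two-sided exact permutation p = 0.00827, adjusted over all genes 0.0298). The permutation moved single libraries as if they were independent, although libraries of a day share their timepoint and all untreated libraries belong to d0. Its p-value is therefore no test over days. In that comparison 18.6% of all genes were called higher and 12.6% lower. The call was lost without any 1 of the untreated libraries, with adjusted p-values from 0.0774 to 0.105, and after rescaling (0.19, adjusted p = 0.291) or quantile normalization (0.27, adjusted p = 0.212). In order of level HLA-C ran d0, d10, d1, d4, d20, d7 and d15, and d20 and d7 were its only neighbours to differ past the test (adjusted p = 0.00296).

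B2M, the light chain shared by all class I molecules, moved with the heavy chains over a narrower range. It held 10915.1, 11121.5 and 11345.4 normalised reads at d0, 10919.2, 11117.4 and 10618.4 at d10, and 15946.2, 15975.6 and 16477.9 at d15. The d10 libraries overlapped the untreated ones, whereas the d15 libraries stood well clear of them. At d10 the difference of -0.03 (adjusted p = 0.52) became a call after rescaling (-0.26, adjusted p = 4.77e-06) and after quantile normalization (-0.32, adjusted p = 1.44e-07). The log2 fold change was 0.30 (limma adjusted p = 1.64e-06) at d4, 0.39 (adjusted p = 5.38e-08) at d7 and 0.54 (SE 0.042, adjusted p = 2.06e-10) at d15. By level the days ran d10, d1, d0, d20, d4, d7 and d15, and the steps from d10 to d1, d1 to d0, d20 to d4 and d4 to d7 did not pass the test.

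The sharpest contrast lay inside the peptide transporter. TAP1 held 1207.7, 1235.8 and 1192.2 normalised reads at d0, 676.7, 775.4 and 706.0 at d10, and 2335.0, 2371.5 and 2376.3 at d15. Its partner TAP2 held 2515.9, 2459.8 and 2447.8 at d0, 3143.8, 3127.0 and 3117.3 at d10, and 1819.8, 1702.2 and 1828.3 at d15. On both days the treated libraries of each gene lay entirely outside the untreated range, on opposite sides. TAP1 fell by 0.75 (SE 0.113, limma adjusted p = 4.76e-06) on the log2 scale at d10, while TAP2 was 0.34 higher (SE 0.035, adjusted p = 2.08e-08). At d15 TAP1 was 0.96 higher (SE 0.113, adjusted p = 1.02e-07), while TAP2 fell by 0.47 (SE 0.035, adjusted p = 5.29e-11). Between d10 and d15 TAP1 rose 3.28-fold and TAP2 dropped to 0.57 of its level, with adjusted p = 8.68e-12 and 8.30e-15.

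At d7 TAP1 was 0.58 higher (limma adjusted p = 0.000123), which became 0.81 without library c and 0.44 without library a. At d20 both subunits were below the untreated mean. TAP1 at d20 stood at -0.11 (limma adjusted p = 0.4), which passed with only 2 groups in the fit (adjusted p = 0.0264) and after rescaling (-0.31, adjusted p = 0.0155). TAP1 was lower at d1 (-0.32, limma adjusted p = 0.0186), a call that was lost without d0 library b, d1 library b or d1 library c, with adjusted p-values of 0.0516, 0.0548 and 0.0509. At d4 the TAP1 libraries, 1493.4, 1486.9 and 1352.2, all exceeded the untreated ones, but the difference of 0.25 missed the threshold (adjusted p = 0.0507). It passed without d4 library c (0.30, adjusted p = 0.0449), with only 2 groups in the fit (adjusted p = 1.54e-05) and with DESeq2 (adjusted p = 0.0428). Leaving out d7 library c also made it a call. TAP2 was lower at d4 (-0.15, adjusted p = 0.000728) and at d20 (-0.14, adjusted p = 0.00134). At d7 the TAP2 difference of -0.07 did not pass (adjusted p = 0.0625). It passed after rescaling (-0.27, adjusted p = 1.08e-06) and after quantile normalization (-0.16, adjusted p = 0.000366). It also passed with edgeR (-0.1, adjusted p = 0.0196) and without d7 library c (-0.09, adjusted p = 0.0347). At d1 TAP2 was 0.18 higher (adjusted p = 0.000153), which rescaling turned to -0.02. By level TAP1 ran d10, d1, d20, d0, d4, d7 and d15, with no difference past the test between neighbours from d1 to d4. TAP2 ran d15, d4, d20, d7, d0, d1 and d10, with none between neighbours from d4 to d0.

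Tapasin, the bridge between transporter and heavy chain, was high at d4, d7 and d15 and low at d10 like TAP1, over a narrower range. At d1, where TAP1 was lower, TAPBP was at 0.00, and at d20 it was higher where TAP1 was not. TAPBP held 2961.7, 2934.7 and 2847.5 normalised reads at d0, 4007.9, 3989.4 and 3998.0 at d4, 2630.3, 2690.7 and 2522.8 at d10, and 4288.5, 3914.5 and 3873.2 at d15. The d4 and d15 libraries overlapped each other and stood above d0, and those of d10 lay below it. The log2 fold change was 0.46 (SE 0.043, limma adjusted p = 4.99e-09) at d4, 0.46 (adjusted p = 2.70e-09) at d15 and -0.16 (adjusted p = 0.00295) at d10. At d20 the difference of 0.12 (adjusted p = 0.0193) was lost without d0 library c or d20 library a, and it turned to -0.08 after rescaling and -0.02 after quantile normalization. Its lowest day was d10, and the steps in level from d0 to d1, d7 to d4 and d4 to d15 did not pass the test.

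**Figure D3:**
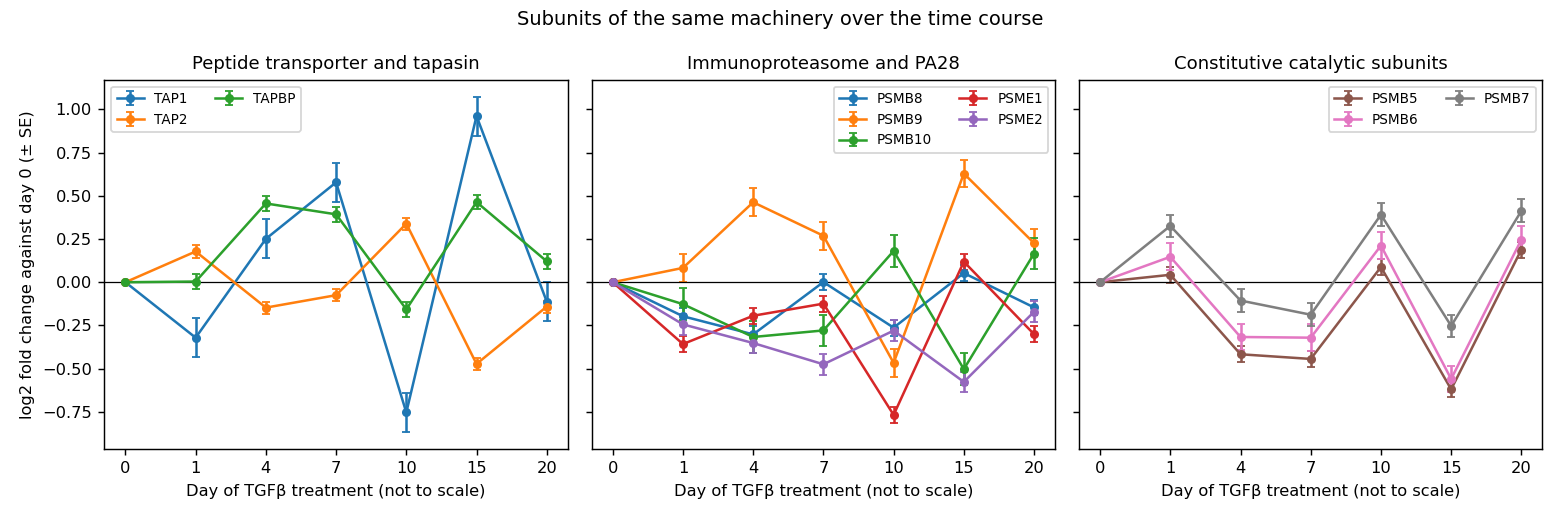
log2 fold change against day 0 (vertical axis, ± SE from limma, 3 libraries a day) by day of TGFβ treatment (horizontal axis, days evenly spaced) for the transporter and tapasin, the immunoproteasome and its activator PA28 (PSME1 and PSME2), and the constitutive catalytic subunits. TAP1 and TAP2 cross between d1 and d4, between d7 and d10 and between d10 and d15, and at d15 PSMB9 stands at 0.63 where PSMB5 stands at -0.62.

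The immunoproteasome subunits also parted. PSMB9 held 274.1, 281.6 and 280.0 normalised reads at d0, 395.4, 392.4 and 366.2 at d4, 198.0, 213.8 and 192.6 at d10, and 439.7, 422.4 and 432.0 at d15. The groups of these 4 days did not overlap. Against d0 its log2 fold change was 0.46 (SE 0.080, limma adjusted p = 2.46e-05) at d4, -0.47 (adjusted p = 2.58e-05) at d10 and 0.63 (SE 0.080, adjusted p = 3.37e-07) at d15. The rise at d7, 0.27 (adjusted p = 0.00548), did not pass after rescaling (0.08, adjusted p = 0.382). The one at d20, 0.23 (adjusted p = 0.0183), was lost after rescaling (0.03, adjusted p = 0.779) and without d0 library a (0.21, adjusted p = 0.0515). From d0 through d1 and d20 to d7, neighbours in level did not differ past the test.

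PSMB8 was not called higher on any day. Its libraries held 1120.4, 1069.6 and 1093.3 normalised reads at d0 and 863.4, 876.4 and 924.4 at d4, and at d15 they held 1095.6, 1147.8 and 1163.3. The d4 libraries lay below the untreated range and the d15 libraries overlapped it. PSMB8 fell by 0.30 (SE 0.046, limma adjusted p = 4.88e-06) on the log2 scale at d4 and by 0.26 (adjusted p = 3.11e-05) at d10. At d15 the difference was 0.05 (95% interval -0.04 to 0.15, adjusted p = 0.297), and rescaling turned it to -0.11. Like the 7 genes above, it was higher at d15 than at d10, by 0.32 (adjusted p = 1.95e-06). Its days fell into a lower set (d4, d10, d1 and d20) and a higher set (d0, d7 and d15), and neighbours differed past the test only between the 2 sets, from d20 to d0 (adjusted p = 0.00841). The gene models of PSMB8, PSMB9 and TAP1 overlap on opposite strands in GENCODE 29, those of HLA-B and HLA-C overlap on the same strand, and the heavy chains resemble each other in sequence, so the split of reads among these genes is uncertain.

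Several other proteasome genes were lower at d15, where PSMB9 was higher. The 3 constitutive catalytic subunits that immunoproteasome subunits replace, PSMB5, PSMB6 and PSMB7, were all lower at d7 and at d15, as were 32.6% and 37.3% of all genes. Their log2 fold changes at d15 were -0.62, -0.56 and -0.25 (limma adjusted p under the threshold for each). From d10 to d15 all 3 fell, and from d15 to d20 all 3 rose, under each scaling tried. On the deposited scale 40.5% of all genes fell in the first of these steps and 37.7% rose in the second. Of 4 further genes of the immunoproteasome and its activator, PSMB10 (the remaining inducible catalytic subunit), PSME2 (a PA28 subunit) and POMP (the assembly chaperone) were lower at d15, by -0.50, -0.58 and -0.86, beside 37.3% of all genes lower. PSME1, the other PA28 subunit, was 0.12 higher at d15 but -0.04 after rescaling, and it shared the dip of TAP1 at d10 with -0.77. PSMB10 at d10 was at 0.18, which did not pass the test.

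Among 10 genes of the loading complex and of peptide trimming, 7 were higher and 1 lower at d15 (39.2% and 37.3% of all genes). CALR and PDIA3, the calreticulin and ERp57 of the loading complex, were higher on every day (CALR 0.24 and PDIA3 0.24 at d15), but after rescaling CALR at d7 stood at -0.02 and after quantile normalization at -0.01. ERAP1 and ERAP2, the trimming peptidases of the endoplasmic reticulum, were both 0.37 higher at d15. TPP2, a cytosolic peptidase, was lower at d15 by -0.78. Of 11 other tested heavy chains and class I-like genes, 9 were higher and 2 lower at d15, 7 and 2 at d7, and 2 and 5 at d10, beside 39.2% and 37.3%, 34.6% and 32.6%, and 37.0% and 30.7% of all genes. After rescaling these counts were 7 and 2, 6 and 3, and 2 and 6. MR1, which presents vitamin B metabolites to MAIT cells, had the profile of the 7 genes with 0.61 at d7, -0.51 at d10 and 1.04 at d15. HLA-F, a non-classical heavy chain, peaked earlier, with 0.56 at d7, -0.31 at d10 and 0.22 at d15. By contrast MICB, a stress ligand of NKG2D, and CD1D, which presents lipids, were higher on every day, from 0.51 to 1.05 and from 1.01 to 1.66.

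The regulators of these genes were called at shares near those of all genes. Of 17 tested, 7 were higher and 7 lower at d15, and 5 were higher and 6 lower at d10 (4 and 11 after rescaling), beside 39.2% and 37.3% of all genes at d15 and 37.0% and 30.7% at d10. NLRC5, the class I transactivator, was lower at d4 (-0.94), d10 (-0.84) and d15 (-1.01), days on which HLA-B was higher, lower and higher, and it stood at 0.03 at d7. IRF1, an activator of class I promoters, was 0.20 higher at d4 and lower at d10 (-0.45), and at d15 it was at 0.01, which did not pass. IRF9, the DNA-binding part of the ISGF3 complex, was higher on every day, with 2.21 at d7 and 0.63 at d10. Its partner STAT2 was higher at d4, d7 and d15 (0.74, 0.78 and 0.76) and lower at d10 (-0.38). RELA, an NF-κB subunit, was higher on every day, from 0.44 to 0.61.

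**Figure D4:**
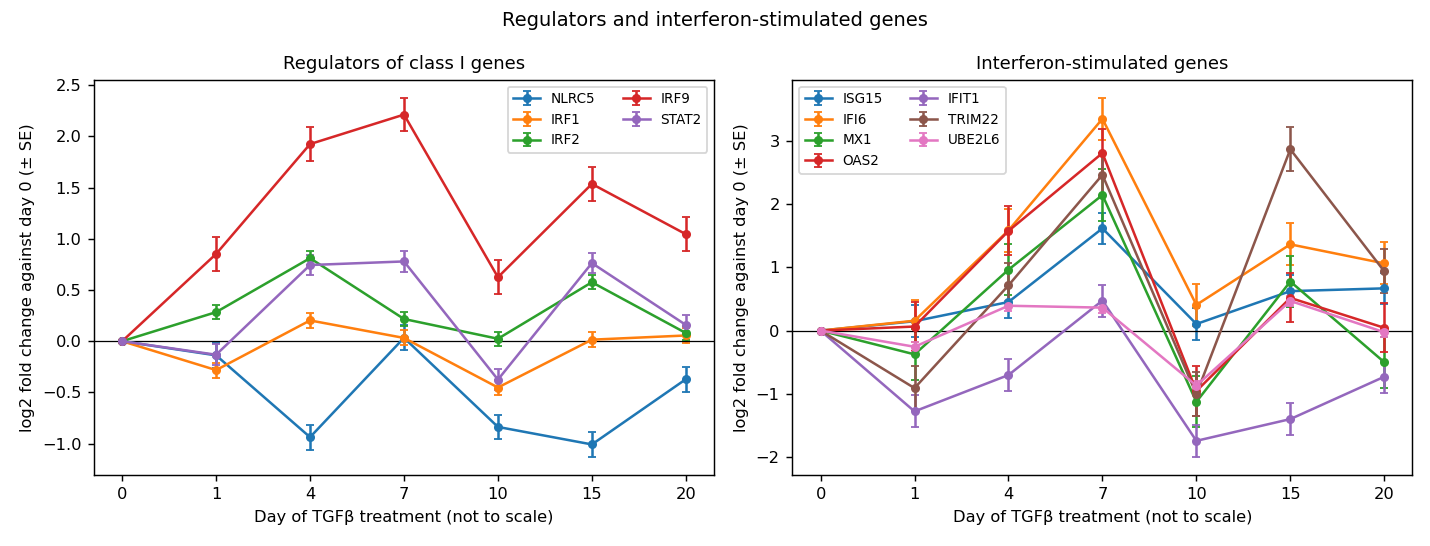
log2 fold change against day 0 (vertical axis, ± SE from limma, 3 libraries a day) by day of TGFβ treatment (horizontal axis, days evenly spaced) for 5 regulators of class I genes and 7 interferon-stimulated genes. IRF9 is above 0 on every day, NLRC5 is at -1.01 at d15, and the interferon-stimulated genes drawn peak at d7, except TRIM22 and UBE2L6, which are as high or higher at d15.

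Interferon-stimulated genes were mostly higher at d7 and lower at d10. Of 33 tested, 25 were higher and 0 lower at d7 than at d0 (34.6% and 32.6% of all genes), 2 were higher and 21 lower at d10 (37.0% and 30.7%), and 10 were higher and 10 lower at d15 (39.2% and 37.3%). From d10 to d15, 22 rose and 4 fell (39.3% and 40.5%). Without d7 library c, 30 were higher at d7. IFI6 stood at 3.35 at d7, 0.41 at d10 (not past the test) and 1.36 at d15, and OAS2, an antiviral synthetase, at 2.81, -0.96 and 0.52, the last not past the test. TRIM22 was higher at d15 (2.87) as it was at d7 (2.46). USP18, which restrains interferon signalling, was lower at d10 (-2.41) and d15 (-2.16). Transcripts of IFNG and IFNB1 never exceeded 3 reads in a library, the floor of detection, with IFNG at 0 throughout. IFNK, an interferon of keratinocytes, was at 0 in all 3 untreated libraries, and held 24.2 to 70.7 normalised reads at d7, 7.8 to 14.9 at d10 and 5.2 to 10.2 at d15. Of 10 tested genes listed with the interferon ligands and receptors, 9 were higher and 0 lower at d4 (36.9% and 35.3% of all genes). At d10, 7 were higher and 2 lower (37.0% and 30.7%), and at d15, 8 and 0 (39.2% and 37.3%). After rescaling these counts were 8 and 1, 5 and 2, and 7 and 0. Unlike most of them at d10, IFNGR1, the ligand-binding chain of the interferon-γ receptor, was lower on that day (-0.72). It was 0.44 higher at d4 and 0.45 higher at d15.

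Markers of other cells and of the cell state were read beside these values. Of 14 leukocyte and endothelial markers, 7 (among them PTPRC, CD3E and CDH5) were at or under 3 reads in every library. The summed level of the 14 was 724 to 808 normalised reads at d0, 1264 to 1406 at d1, 1880 to 1951 at d4, 1584 to 2197 at d7, 780 to 911 at d10, 1539 to 1613 at d15 and 1076 to 1151 at d20, and its most abundant gene, CSF1R, was higher on every day. Of the 5 markers that passed the filter, 2 were higher and 2 lower at each of d4, d7 and d15 (CD68 and CSF1R against CD14 and PECAM1). On these days 36.9%, 34.6% and 39.2% of all genes were higher and 35.3%, 32.6% and 37.3% lower. At d10, 1 marker was higher and 2 lower (37.0% and 30.7% of all genes). The sum was high at d4, d7 and d15 and low at d10, as were the means of the 7 class I genes above, and it was also high at d1; its part in their changes was not tested. Of 12 class II genes 4 were at or under 3 reads in every library, among them HLA-DRA, which is 1 of the defining class II chains. The label of a mammary epithelial line was met by KRT5, at a mean of 224300 normalised reads at d0. The summed level of 6 mammary epithelial markers shared the steps of the class I genes from d7 on but not the rise at d4, with means of 350200 normalised reads at d0, 271900 at d4 and 555400 at d7 (329102 to 691810 over its libraries, beside 337073 to 361467 at d0), a low of 191000 at d10, then 493600 at d15 and 256400 at d20. KRT5 was the most abundant of the 6, so the sum mostly follows that gene. Against d0, 2 of the 6 were higher and 3 lower at d4 (36.9% and 35.3% of all genes). At d7, 3 were higher and 1 lower (34.6% and 32.6%), and at d10, 0 and 5 (37.0% and 30.7%). At d15, 3 were higher and 3 lower (39.2% and 37.3%), and at d20, 1 and 4 (32.5% and 30.2%). From d7 to d10 5 of the 6 fell (35.2% of all genes), from d10 to d15 5 rose (39.3%), and from d15 to d20 5 fell (36.3%). The sum of 5 TGFβ target genes was 17930 at d0, 592400 at d7, 280100 at d10 and 457800 at d15. All 5 were higher than at d0 on every day, beside 31.3 to 39.2% of all genes, depending on the day. From d7 to d10 all 5 fell (35.2% of all genes). The part of these changes in the class I profile was not tested. All 7 mesenchymal markers, such as FN1 and VIM, were higher on every day, beside 31.3 to 39.2% of all genes. From d7 to d10, 4 of them rose and 1 fell (36.2% and 35.2% of all genes), with VIM at 2.72 at d7, 3.36 at d10 and 3.60 at d15.

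Genes of dividing cells were lower at d4, d7 and d15, days on which most class I genes were higher. At d20, with 6 class I genes higher, 3 were higher and 4 lower on the deposited scale (32.5% and 30.2% of all genes). That day depended on the scaling. After rescaling 2 were higher and 9 lower, and after quantile normalization 2 and 7, with 1 and 2 class I genes higher. Of 15 such genes, 15 were lower than at d0 at d4 and at d15 and 14 at d7, beside 35.3%, 37.3% and 32.6% of all genes lower. At d10, 3 were higher and 4 lower (37.0% and 30.7% of all genes). After rescaling and after quantile normalization 9 were lower at d10, beside 6740 and 4716 of all genes. The summed level of 15 proliferation genes, a list chosen after the values were seen, was 73702, 76228 and 77204 normalised reads in the d0 libraries, 45761, 44118 and 44236 at d4, 70702, 71600 and 70781 at d10, and 23951, 23647 and 24262 at d15. It was lowest at d15. Within d7, library c had the highest sum, 66157 against 49725 and 50984, and the lowest mean over the 9 class I genes, 0.08 against 0.30 and 0.29 on the centred log2 scale. From d4 to d7, 8 of the 15 genes rose and 1 fell (25.5% and 25.5% of all genes). In this step d7 libraries a and b exceeded every d4 library both in the summed level and in the class I mean. On the deposited scale the mean sum at d20 was 75560, beside 75710 at d0, with 6 class I genes higher. Only 1 class I gene was higher after rescaling and 2 after quantile normalization, so that count depends on the scaling. The d1 libraries had sums of 62433 to 64379, below those of d0, with class I means of -0.21 to -0.12, beside -0.17 to -0.16 at d0. The part of proliferation in the class I changes was not tested.

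**Figure D5:**
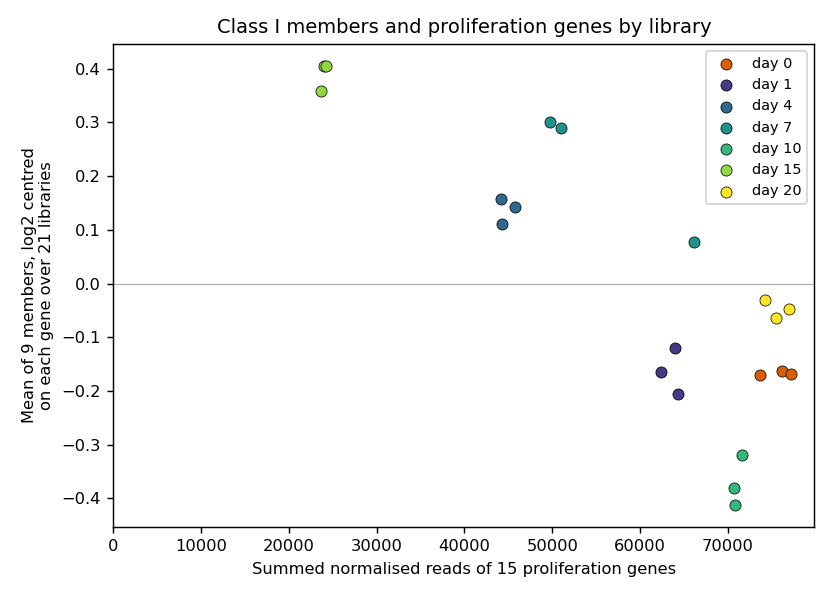
Mean of the 9 class I genes, log2 and centred on each gene's mean over 21 libraries (vertical axis), against the summed normalised reads of 15 proliferation genes (horizontal axis, starting at 0); each point is 1 library, coloured by day. The d15 libraries lie at the upper left with sums of 23647 to 24262 and the d10 libraries at the lower right, and d7 library c lies apart from the other d7 libraries.

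The genes whose profile over the 21 libraries was most like the mean of the 9 class I genes, among 10593 genes with a mean of at least 100, were FBXO2 (r = 0.985), YPEL3 (0.985), PLXNB2 (0.984), FAM134B (0.982), NUPR1 (0.981), ABHD4 (0.98), PNRC1 (0.979) and HEG1 (0.979). FBXO2, for instance, held a mean of 638.8 normalised reads at d0, 457.9 at d10 and 1817 at d15. A correlation above 0.9 was found for 396 genes, or 3.74%, so the profile is one that many genes had. Gene by gene, the nearest was ABHD4 for HLA-B (0.988), TTYH3 for HLA-C (0.984), DNAJB2 for HLA-E (0.989), CALCOCO1 for B2M (0.988) and TNFRSF14 for TAP1 (0.987). For TAP2 it was ADSS (0.977), for TAPBP KIAA0247 (0.992), for PSMB8 C1orf183 (0.941) and for PSMB9 AKR1C2 (0.954). All of these are descriptions over libraries that share timepoints.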

How the data were processed

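RNA-seq of HMLE cells at 7 timepoints, with 3 libraries each, was analysed from 1 table of 23201 gene symbols. The authors deposited a normalised signal, the reads of each gene divided by 1 size factor per library. The submitters' processing notes name STAR 2.7, Salmon 1.4 and hg19; whether counting used strand is not given in the sources used here. Whole reads were recovered from 100% of values (tolerance 0.1). The 13343 genes whose values averaged 10 or more were log2-transformed after adding a pseudocount of 1 and fitted in R 4.3.3 by limma 3.58.1 (eBayes with trend), 1 mean per timepoint, with Benjamini-Hochberg adjustment within each contrast; fold changes are on this scale, which understates those of low genes. A gene at 3 reads or fewer was at the floor, which covers counting error only. Treated and untreated libraries were also compared by two-sided exact permutation of single libraries (smallest p 0.000752), which takes no account of their shared days.

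On simulated libraries for d15 against d0 (13310 genes), limma called 95.5% of 2-fold, 85.1% of 1.5-fold and 56.7% of 1.25-fold changes, and 7 unchanged genes. The simulation changed only 66 or 67 genes at each fold and gave all genes 1 common spread. In the data 5236 genes were called higher and 4972 lower at d15. The adjustment is stricter where few genes change, so these shares do not give the sensitivity in the data. Alternatives were a pseudocount of 10, no filter (19546 genes), rescaled totals, quantile normalization, only 2 groups in the fit, edgeR 4.0.16 and DESeq2 1.42.0 on the recovered reads, and leaving out each library. The genes and lists were chosen with earlier results of these data known. The text names the 9 genes, genes of the lists, the 8 genes most like the mean profile and 1 most like each gene; list genes named as examples were picked after their values were seen. Other settings for the lists and the proliferation list were chosen after seeing the data. Figures used matplotlib 3.10.9 in Python 3.11.15.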

Additional observations from a re-analysis of the deposited data

Results flagged for a closer look

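Of the 9 class I genes, 5 were called in opposite directions against untreated cells on different days of TGFβ treatment, as were 28.7% of all tested genes, and the differences between those days follow. The days were picked for these opposite calls, so the differences describe them and are no separate test. HLA-B was 1.32 higher on the log2 scale at d15 than at d10, with every d15 library above every d10 library. TAP1 was 1.72 higher at d15 than at d10. TAP2 went the other way and was 0.81 higher at d10 than at d15. TAPBP was 0.62 higher at d15 than at d10, and PSMB9 1.10 higher. These are differences between groups of 3 libraries, in 3 of 3 libraries each. Because all days are compared with the same untreated libraries, the changes against d0 share those controls.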

How the results depend on the processing

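Directions at d4, d7 and d15 of the heavy chains, B2M, TAP1, TAPBP and PSMB9, and the opposite calls of TAP1 and TAP2 at d10 and d15, held under a pseudocount of 10, no filter, rescaling, quantile normalization, 2 groups in the fit, edgeR and DESeq2; HLA-C at d4 (0.11, adjusted p = 0.0655) and PSMB9 at d7 missed the threshold after rescaling. No paired analysis was possible because no replicate number is given in the deposited table. Rescaling moved the median over all genes of the log2 fold change against d0 to between -0.20 and -0.14, and calls that were higher from 51.1 to 54.6% of all calls to 26.7 to 39.1%; values against d0 are to be read relative to that shift. After rescaling, genes higher and lower numbered 2436 and 6692 at d1, 3035 and 6552 at d7, 2864 and 6740 at d10, and 2661 and 6778 at d20; with only 2 groups in the fit, d7 against d4 gave 1970 and 2203.

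After rescaling the log2 fold change reversed for HLA-C (0), TAP2 (-0.02) and TAPBP (-0.19) at d1, for PSMB8 at d7 (-0.19) and d15 (-0.11), and for HLA-B (-0.01) and TAPBP (-0.08) at d20; quantile normalization reversed TAPBP at d1 (-0.15) and d20 (-0.02). Each of these was past the threshold either on the deposited or on the changed scale, not on both; differences past it on neither also changed sign, among them HLA-C at d10 (-0.11 and -0.07) and HLA-E at d1 (-0.07 and -0.02) under the 2 scalings. Class I genes higher at d1 went from 2 to 0 and lower from 2 to 5 under both scalings. At d7, 0 were lower, against 2 after rescaling and 1 after quantile normalization or with edgeR; at d10, 2 were higher with 2 groups in the fit; at d15, 2 were lower after rescaling; at d20, 1 was higher after rescaling and 2 after quantile normalization. For d4 against d1, 2 were lower after quantile normalization, with 2 groups in the fit and with edgeR; for d7 against d4, 5 were higher with edgeR, and 0 were lower with no filter, rescaling, 2 groups in the fit, edgeR and DESeq2. The treated against untreated difference of HLA-C was 0.19 after rescaling and 0.27 after quantile normalization, both past the threshold no longer, and that of PSMB8 was -0.34 (adjusted p = 0.00312) after rescaling. The cause was not tested.

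Leaving out 1 library gave 1 to 2 genes lower at d1, 0 to 1 lower at d7, 1 to 2 higher at d10, 6 to 7 higher at d4, 5 to 6 higher at d20, 6 to 7 higher and 1 to 2 lower for d4 against d1, and 2 to 5 higher and 0 to 2 lower for d7 against d4 (2 higher without d4 library c, d7 library a or d7 library b, where TAP1 was no longer called, with adjusted p-values of 0.081, 0.153 and 0.114), with 0.37 to 0.41 for HLA-C in treated against untreated libraries. The 5 higher and the 1 lower at d7 came without d7 library c, which also shapes the common spread. Without it, 3 were higher at d1, 7 (TAP1 added) at d4 and 2 (HLA-C added) at d10, while 6 were lower at d10 and 3 at d20. With 3 libraries a day, small differences were often missed in simulation, in which far fewer genes changed than in the data.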

Other observations

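Genes that limit T cell and natural killer responses were read beside class I. Of 6 tested inhibitory ligands and class I turnover genes, 5 were higher and 1 lower at d4, d7 and d15, beside 36.9%, 34.6% and 39.2% of all genes higher on these days. At d4 this became 2 higher and 1 lower after rescaling and 4 and 1 after quantile normalization. CD274, which encodes PD-L1, held a mean of 37.39 normalised reads at d0 and was higher on every day, by 1.46 on the log2 scale at d10 (limma, adjusted p under the threshold), the day on which HLA-B was lowest, and by 1.15 at d15, while at d4 the call was lost after rescaling (0.37, adjusted p = 0.125). NBR1, an autophagy receptor that can carry class I molecules to lysosomes, followed the class I profile with 0.54 at d4, -0.17 at d10 and 0.72 at d15. Of 7 tested class II genes, 6 were higher and 0 lower at d7 (34.6% and 32.6% of all genes). At d4, 5 were higher and 0 lower (36.9% and 35.3%), with 2 higher after rescaling. At d10, 3 were higher and 2 lower (37.0% and 30.7%). At d15 and at d20, 5 were higher and 1 lower (39.2% and 37.3%, and 32.5% and 30.2%). CTSS, the protease cathepsin S, was higher on every day, by 1.94 at d4 and 2.01 at d20.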
